A study of Cricetulus griseus with 4 samples.

Results

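The genes described here are the E2F transcription factors E2F3, E2F4 and E2F5 and the cell cycle regulators CDK6, CDC6 and WEE1. They were chosen by gene symbol, as probes that the platform annotation names with 1 of these symbols alone. Each of the 6 genes was on 1 of the 1152 probes, of which 350 carry a single symbol, and each probe was printed as 2 adjacent spots. The annotation gives human genes (Entrez Gene 1871 for E2F3, 1874 for E2F4, 1875 for E2F5, 1021 for CDK6, 990 for CDC6 and 7465 for WEE1), while the RNA was Chinese hamster, in which all 6 symbols are also listed as genes by RefSeq.

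E2F factors bind DNA together with a DP partner and set the transcription of genes needed for S phase. E2F3 belongs to the activating group, whereas E2F4 and E2F5 mostly act as repressors, in complex with the retinoblastoma-like pocket proteins in resting and early G1 cells. CDK6 with a D-type cyclin phosphorylates the pocket proteins and so frees E2F. CDC6 loads the MCM helicase onto replication origins and is itself an E2F target, and WEE1 restrains entry into mitosis by an inhibitory phosphorylation of CDK1.

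The series asked whether isogenic clones with stable and with unstable chromosomes differ in gene expression. Total RNA of the stable clone RT210B was in channel 1 of each of 4 arrays. Channel 2 of the 2 arrays of mixture 1 held RNA of the unstable clones LS12 and 10-107-9 in equal parts, and channel 2 of the 2 arrays of mixture 2 held Fe10-3 and 10-56-11 likewise. The labels do not give their origin, but as general background such clones come from irradiated Chinese hamster ovary hybrid cells that carry a human chromosome. The labels name no treatment, dye or culture for any array. A pool cannot show which of its clones carries a difference, RT210B stands for all stable cells as 1 clone, and it is not stated that replicates came from separate cultures, so the p-values speak of array-to-array spread alone, technical or not. In RNA of whole cultures, more cells in a given cycle phase and more transcript per cell cannot be told apart.

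Values are log2 ratios between the channels, averaged over both spots and centred so that the middle probe of each array lies at 0. The labels do not settle which channel is the numerator, so a gene is said to lie on the positive or the negative side of the array's middle, as deposited, and not to be higher in either pool. No array had its channels swapped, so a channel difference and a difference between clones cannot be told apart. The arrays differed in spread, with an SD over probes of 1.14 and 1.05 for replicates 1 and 2 of mixture 1 and of 0.80 and 0.47 for mixture 2. Array pairs correlated over probes at r = 0.195 to 0.694. Markers of endothelial, blood, neural, epithelial and muscle cells could not check the cells, since 2 of 20 had a named probe and ratios hold no absolute level.

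E2F5 and WEE1 lay on opposite sides of the array's middle, and each kept its side on all 4 arrays, except that WEE1 without centring lay at -0.14 on replicate 2 of mixture 2. E2F5 was on the negative side at a mean log2 of -1.33 (SE 0.22, 4 arrays), 2.51-fold from the middle probe, and WEE1 on the positive side at 0.92 (SE 0.22), 1.89-fold from it. E2F3 was negative in mixture 1 (-0.98, SE 0.30, 2 arrays) and lay at 0.29 (SE 0.30) in mixture 2, which did not pass the test. E2F4, CDK6 and CDC6 did not pass in any comparison. In mixture 1, 3 of the 6 genes had a limma adjusted p under 0.05, where 43.1% of all probes did, so the share of these genes was close to the background.

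**Figure D1:**
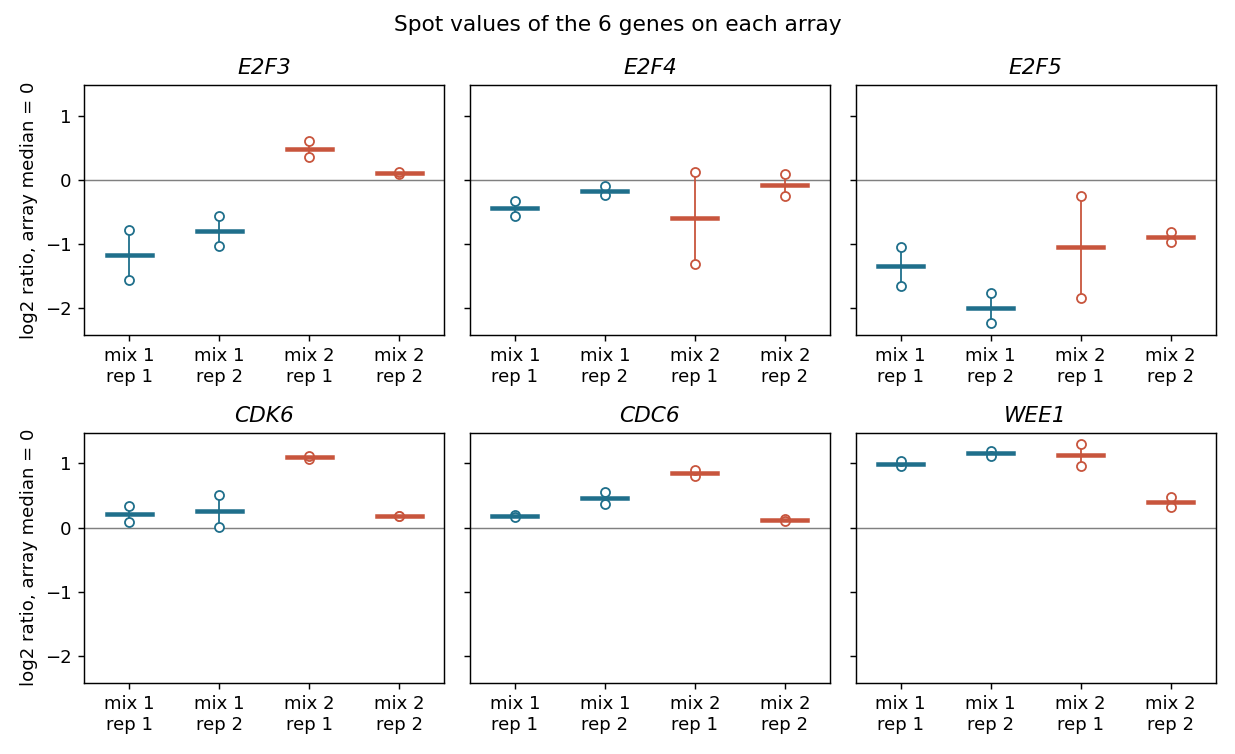
Log2 ratio (vertical axis, array median at 0) of each spot of the 6 genes on the 4 arrays, with open circles for the 2 spots and a thick bar for their mean (blue mixture 1, red mixture 2). After centring E2F5 lies below 0 and WEE1 above 0 at every spot (uncentred, WEE1 averages -0.14 on replicate 2 of mixture 2), while E2F3 lies below 0 in mixture 1 and above 0 in mixture 2.

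E2F5 had log2 ratios of -1.35 and -2.01 on replicates 1 and 2 of mixture 1 and of -1.05 and -0.89 on those of mixture 2. All 8 of its spots were below 0, and the arrays of mixture 1 lay below those of mixture 2. On replicate 2 of mixture 1, 1.65% of all probes had a lower value, and on the other arrays 5.47% to 15.4% did. The spots agreed least on replicate 1 of mixture 2, at -0.26 and -1.84, a gap wider than that of 98.8% of the probes on that array. In mixture 1 E2F5 lay at -1.68 (SE 0.30, 95% interval -2.37 to -0.98), 3.20-fold from the middle probe, with a limma adjusted p of 0.00821. Its mean over both mixtures had a limma adjusted p of 0.00906 and 2.43% of all probes were further from 0. In mixture 2 its value of -0.97 (SE 0.30, interval -1.67 to -0.28) did not pass (limma adjusted p 0.249, unadjusted 0.0115), in a comparison where 0% of the 1152 probes passed in limma and 226 had an unadjusted p under 0.05. With mixture 2 fitted on its own arrays 9.81% of all probes passed, E2F5 among them at the same value (limma adjusted p 0.0340).

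E2F3, the activating member, had log2 ratios of -1.17 and -0.79 on the arrays of mixture 1 and of 0.48 and 0.10 on those of mixture 2. The mixtures did not overlap, and each of its spots had the sign of its mixture. Mixture 1 gave -0.98 (95% interval -1.66 to -0.31), 1.97-fold from the middle probe, with a limma adjusted p of 0.0276. Without replicate 1 of mixture 1 the value was -0.79 and did not pass (limma adjusted p 0.155), nor did it with the arrays scaled to 1 spread (-0.75, 0.0865) or on the odd-numbered spot alone (-1.08, 0.0579). Mixture 2 gave 0.29 (interval -0.38 to 0.97, limma adjusted p 0.574), and this sign depended on the centring, since the uncentred value was -0.19. The mean of both mixtures, -0.35 (SE 0.21), combined opposite signs and did not pass (limma adjusted p 0.215), while without centring, where 48.4% of all probes passed, it was -0.67 and passed (0.0296).

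E2F4 stayed nearer to the middle than E2F5, the other repressor. It had log2 ratios of -0.45 and -0.17 on the arrays of mixture 1 and of -0.60 and -0.082 on those of mixture 2. All 4 values were negative, and the mixtures overlapped. In mixture 2 its spots lay at -1.32 and 0.12 on replicate 1 and at -0.25 and 0.087 on replicate 2. The mean of each of these arrays therefore joins spots of opposite sign. E2F4 had -0.31 (SE 0.30, 95% interval -0.99 to 0.37) in mixture 1 and -0.34 (SE 0.30, interval -1.02 to 0.34) in mixture 2, with limma adjusted p-values of 0.423 and 0.516. The mean of both was -0.32 (SE 0.21, interval -0.81 to 0.16, limma adjusted p 0.244). Without centring the mean was -0.65 and passed (limma adjusted p 0.0314).

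**Figure D2:**
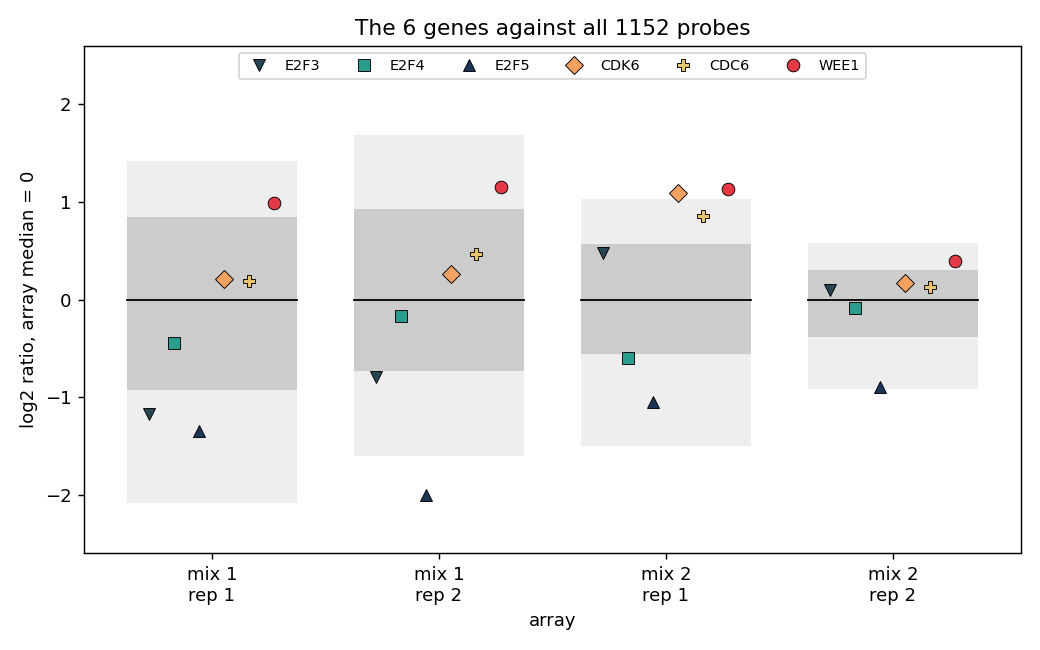
Log2 ratios of the 6 genes (symbols) on each array against all 1152 probes, with the 25th to 75th percentile of the probes in dark grey, the 5th to 95th percentile in light grey and the median as a line. The grey ranges narrow from the arrays of mixture 1 to replicate 2 of mixture 2, where WEE1 at 0.40 is still above 82.6% of the probes.

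CDK6, the kinase partner of D-type cyclins, had log2 ratios of 0.21 and 0.26 on the arrays of mixture 1 and of 1.09 and 0.17 on those of mixture 2. All 4 were positive, and replicate 1 of mixture 2 stood above the others, where CDK6 was higher than 96.3% of all probes. The other replicate of that mixture was 0.92 lower, against a median gap of 0.40 between these arrays over all probes. The fitted value was 0.23 (SE 0.32, 95% interval -0.50 to 0.97) in mixture 1, 0.63 (SE 0.32, interval -0.10 to 1.37) in mixture 2 and 0.43 (SE 0.23, interval -0.085 to 0.95) in the mean of both. The limma adjusted p-values were 0.577, 0.295 and 0.158.

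CDC6, the origin licensing factor, had log2 ratios of 0.19 and 0.47 on the arrays of mixture 1 and of 0.86 and 0.12 on those of mixture 2. Replicate 1 of mixture 2 was again the highest, and all 4 values were positive. CDC6 had the closest duplicate spots of the 6 genes, 0.085 apart on average over the arrays, with 6.08% of probes closer. The fitted value was 0.33 (SE 0.31, 95% interval -0.38 to 1.04) in mixture 1, 0.49 (SE 0.31, interval -0.22 to 1.20) in mixture 2 and 0.41 (SE 0.22, interval -0.094 to 0.91) in the mean of both, with limma adjusted p-values of 0.415, 0.370 and 0.168.

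WEE1, the brake on mitotic entry, had log2 ratios of 0.99 and 1.16 on the arrays of mixture 1 and of 1.13 and 0.40 on those of mixture 2. All 8 spots were above 0 after centring, and replicate 2 of mixture 2, the array with the narrowest spread, was lowest. In rank WEE1 was above 80.2% and 80.9% of all probes on the arrays of mixture 1 and above 97.2% and 82.6% on those of mixture 2, so replicate 1 of mixture 2 ranked highest. Mixture 1 gave 1.08 (SE 0.31, 95% interval 0.37 to 1.78), 2.11-fold from the middle probe, with a limma adjusted p of 0.0235. Without replicate 2 of mixture 1 the value was 0.99 and did not pass (limma adjusted p 0.0654), nor did it with the arrays scaled to 1 spread (0.83, 0.0725), on the even-numbered spot alone (1.04, 0.0554) or over probes with close spots (0.52, 0.0946). Mixture 2 gave 0.76 (SE 0.31, interval 0.059 to 1.47), 1.70-fold, with an unadjusted p of 0.0368 and a limma adjusted p of 0.249. The mean of both had a limma adjusted p of 0.0138, and without replicate 1 of mixture 2 it was 0.74 and did not pass (0.0998). It also did not pass without centring (0.59, limma adjusted p 0.0525) or over probes with close spots (0.46, 0.0557).

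**Figure D3:**
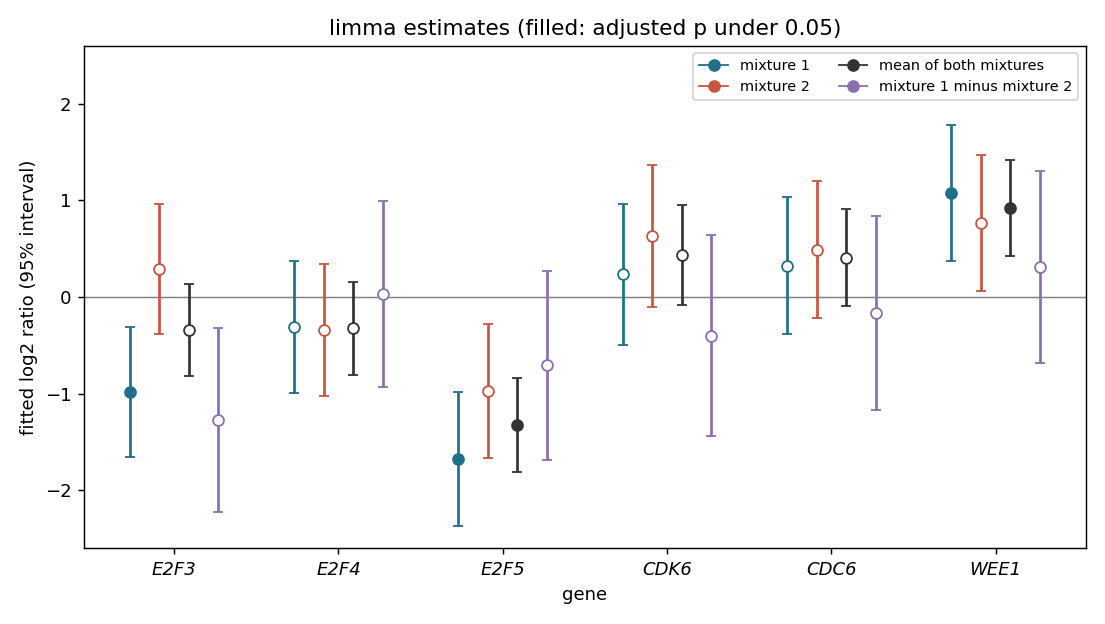
Fitted log2 ratio with its 95% interval (vertical axis) for each gene in mixture 1, mixture 2, their mean and their difference, with filled points where the limma adjusted p is under 0.05. The filled points are E2F3, E2F5 and WEE1 in mixture 1 and E2F5 and WEE1 in the mean.

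Counted by sign, E2F4 and E2F5 were negative and CDK6, CDC6 and WEE1 positive on all 4 arrays, so that 5 of the 6 genes kept 1 side, against 45.7% of all probes (19.9% negative and 25.8% positive throughout). For E2F4 this holds for the spot means, which on both arrays of mixture 2 join spots of opposite sign. Without centring the positive genes turned negative on replicate 2 of mixture 2, at -0.36 for CDK6, -0.41 for CDC6 and -0.14 for WEE1. In the mean of both mixtures 2 of the 6 genes passed, where 38.7% of all probes did. Over the 6 genes the median log2 was -0.037 in mixture 1 and 0.39 in mixture 2, against -0.027 and -0.0030 over all probes. The 3 E2F genes had medians of -0.98 and -0.34. Neither median stands for a typical gene, since the values of the 6 genes ran from -1.68 to 1.08 in mixture 1.

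The agreement of duplicate spots divided the 6 genes in the same way as their signs in the mean of both mixtures. E2F3, E2F4 and E2F5 had mean spot gaps of 0.382, 0.538 and 0.705, above the median of 0.372 over all probes, and CDK6, CDC6 and WEE1 had gaps of 0.197, 0.085 and 0.162, below it. Over all probes, the 576 with closer spots had a median log2 of 0.56 in mixture 1 and 0.35 in mixture 2, and the 576 with wider spots -0.45 and -0.35. Ratios therefore moved with spot agreement across the whole array. After removal of that trend, when 17.3% of all probes passed in mixture 1, E2F5 stayed past the threshold in mixture 1 (-1.27, limma adjusted p 0.0354), but E2F3 (-0.65, 0.117) and WEE1 (0.50, 0.210) did not. In that setting CDK6 and CDC6 turned to the negative side in mixture 1 (-0.17 and -0.70) and E2F4 to the positive side (0.16). In the mean of both mixtures E2F5 then lay at -0.93 (limma adjusted p 0.0540) and WEE1 at 0.43 (0.177), where 0% of all probes passed in limma.

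Between the mixtures E2F3 had the widest difference of the 6 genes. It was -1.27 (mixture 1 minus mixture 2, SE 0.42, 95% interval -2.23 to -0.32), with an unadjusted p of 0.0147 and a limma adjusted p of 0.133. E2F3 and E2F5 were the genes whose mixtures did not overlap, both lower in mixture 1, which makes 2 of 6 against 62.2% of all probes with no overlap in either direction and 26% in this one. E2F5 differed by -0.71 (SE 0.43, interval -1.69 to 0.28, limma adjusted p 0.320), but by 0.16 with the arrays scaled to 1 spread. In rank its mixtures overlapped, with 15.4% and 1.65% of all probes below it in mixture 1 and 12.2% and 5.47% in mixture 2. E2F4 differed by 0.034 (interval -0.93 to 1.00), CDC6 by -0.16 (interval -1.17 to 0.84), WEE1 by 0.31 (interval -0.69 to 1.31) and CDK6 by -0.40 (interval -1.44 to 0.64). None of the 1152 probes (0%) passed in this comparison in limma, and 275 had an unadjusted p under 0.05.

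Among the 6 genes, CDK6 and CDC6 followed each other most closely over the arrays, with a root mean square difference of 0.160 (log2, 4 arrays), against a median of 1.13 over the 61075 pairs of singly named probes. CDK6 and CDC6 were picked as the closest pair, so the median over all pairs does not test them. E2F5 and WEE1 were furthest apart at 2.34. E2F3 was 0.727 from E2F4 and 1.10 from E2F5, and the repressors E2F4 and E2F5 were 1.12 apart. Of all singly named probes, those nearest to WEE1 were NFYB (0.080), CBFB (0.088) and EIF1AX (0.102). NFYB had ratios of 0.95 and 1.31 in mixture 1 and of 1.14 and 0.42 in mixture 2. CDC6 was nearest to BARD1 (0.110), GABPA (0.118) and BGN (0.126), and CDK6 to FLI1 (0.104), CDC6 and HAGLR (0.184). The E2F genes had more distant neighbours: RGS1 (0.209), STK17B (0.247) and CTNNAL1 (0.257) for E2F3, PBX3 (0.190), DAXX (0.209) and ATP7B (0.242) for E2F4, and MLLT3 (0.334), IKZF5 (0.489) and RAB4A (0.540) for E2F5. Such nearness over 4 arrays, all with RT210B, is a description.

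**Figure D4:**
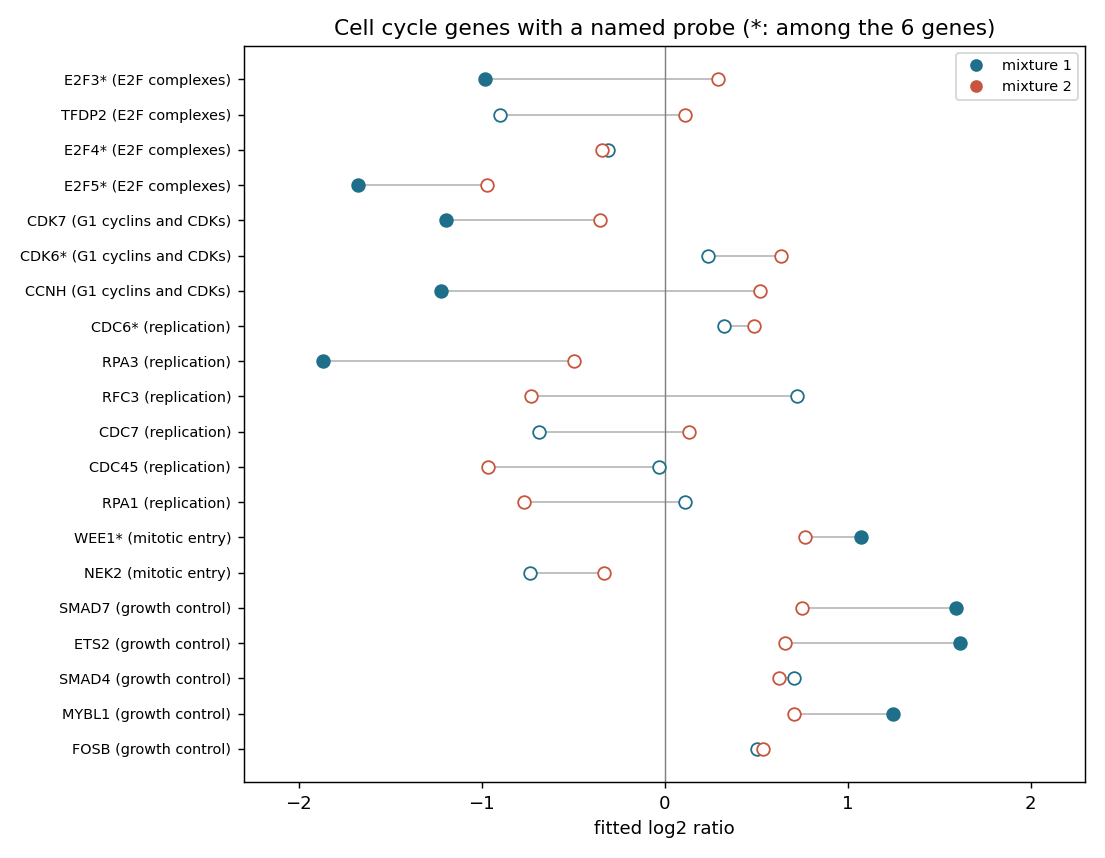
Fitted log2 ratio of the cell cycle genes with a named probe in mixture 1 (blue) and mixture 2 (red), grouped by list, with filled points where the limma adjusted p is under 0.05 and an asterisk on the 6 genes. Filled points occur only for mixture 1, with E2F5 (-1.68) and RPA3 (-1.87) furthest to the left.

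Of 164 genes on 5 lists of cell cycle and growth control genes, 14 besides the 6 had a named probe. In mixture 1, 3 of these 14 passed with positive and 3 with negative values, against 24.4% and 18.8% of all probes. In mixture 2 none of the 14 passed in limma, as no probe did. In the mean of both mixtures 4 passed with positive and 2 with negative values, against 21.7% and 17% of all probes. The median of the 14 was 0.042 in mixture 1, 0.12 in mixture 2 and -0.30 in the mean, against -0.027, -0.0030 and -0.098 over all probes.

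Among E2F complexes, TFDP2, which encodes a DP partner, lay at -0.90 in mixture 1 and 0.11 in mixture 2. It did not pass in either (limma adjusted p 0.0841 and 0.884). In mixture 1 TFDP2 passed without centring (-1.07, limma adjusted p 0.0461) and over probes with close spots (-1.46, 0.0226). It did not pass in any other setting that kept both arrays of mixture 1, such as scaling to 1 spread (-0.70, 0.259). In the mean TFDP2 passed over probes with close spots (-0.85, limma adjusted p 0.0374) but not over all probes (-0.39, 0.262). On replicates 1 and 2 it had log2 ratios of -0.62 and -1.18 in mixture 1 and of 0.79 and -0.57 in mixture 2, so the arrays of mixture 2 disagreed in sign. Among G1 cyclins and kinases, CDK7 (-1.19) and its partner cyclin H (CCNH, -1.22), which form the CDK-activating kinase, passed on the negative side in mixture 1 (limma adjusted p 0.0182 and 0.0312), whereas CDK6 did not pass. CDK7 also passed in the mean (-0.77, limma adjusted p 0.0258), and CCNH, whose mixture 2 replicates were 1.18 and -0.14, did not (-0.35). With the arrays scaled to 1 spread, where 20.1% of all probes passed, neither CDK7 (-0.92) nor CCNH (-0.93) passed in mixture 1. CCNH also failed without replicate 1 of mixture 1 (-0.85) and CDK7 without replicate 2 (-0.94), and both failed on the odd-numbered spot alone (-1.20 and -0.88) and with the trend on spot agreement removed (-1.24 and -0.74). In the mean CDK7 did not pass without replicate 1 of mixture 2 (-0.61, limma adjusted p 0.178), on the odd-numbered spot alone (-0.72, 0.0968) or with that trend removed (-0.41, 0.224).

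Of the 6 replication genes with a named probe, CDC6 among them, RPA3 was the one that passed. RPA3, the small subunit of the single-strand DNA binding complex, lay at -1.87 in mixture 1 (SE 0.34, limma adjusted p 0.00821) and at -1.18 in the mean (0.0106), where it did not pass once the trend on spot agreement was removed (-0.84, 0.0816). It had log2 ratios of -2.11 and -1.63 in mixture 1 and of -0.99 and 0.0053 in mixture 2. RPA1, the large subunit, lay at 0.11 in mixture 1 and -0.77 in mixture 2. CDC45, a partner of the MCM helicase, lay at -0.029 and -0.96, and neither gene passed in either mixture. Their mixture 1 values join replicates of opposite sign (0.45 and -0.23 for RPA1, 0.56 and -0.62 for CDC45). RFC3, a clamp loader subunit, had ratios of 2.00 and -0.55 in mixture 1, and CDC7, a kinase that fires origins, -1.82 and 0.45, so replicates of these genes had opposite signs. NEK2, the mitotic kinase listed with WEE1, lay at -0.74 in mixture 1 and did not pass (limma adjusted p 0.147). Its replicates there were -1.48 and 0.0096, so this value rests on replicate 1.

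All 5 growth control genes lay on the positive side in both mixtures, except FOSB in mixture 1 (-0.058) when only probes with close spots were kept. After centring they were positive on all 4 arrays, as were 25.8% of all probes. On replicate 2 of mixture 2 the median subtracted was -0.53, so FOSB (0.032 after centring) and SMAD4 (0.26) were negative there as deposited. All 5 are among the 576 probes with closer spots, whose median log2 was 0.56 in mixture 1 and 0.35 in mixture 2. In mixture 1, where 24.4% of all probes passed on the positive side, 3 of the 5 passed. These were ETS2, a transcription factor downstream of RAS signalling (1.61), SMAD7, an inhibitor of TGF-beta signalling (1.59), and MYBL1 of the MYB family (1.25), with limma adjusted p-values of 0.0083 to 0.0115. In the mean of both mixtures, where 21.7% of all probes passed on the positive side, these 3 (1.14, 1.17 and 0.98) passed. SMAD4, the common mediator of TGF-beta signals (0.67), also passed there, and FOSB (0.52) did not. SMAD4 did not pass without centring (0.34), with the replicate number as a block (0.67, limma adjusted p 0.0567), without replicate 2 of mixture 1 (0.55), without replicate 1 of mixture 2 (0.48), on either spot alone (0.63 and 0.64), over probes with close spots (0.21) or with the trend on spot agreement removed (0.16). With the trend on spot agreement removed ETS2 lay at 1.02 in mixture 1 (limma adjusted p 0.0512), SMAD7 at 0.47 and MYBL1 at 0.35, and none of the 3 passed there or in the mean (0.63, 0.30 and 0.27).

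**Figure D5:**
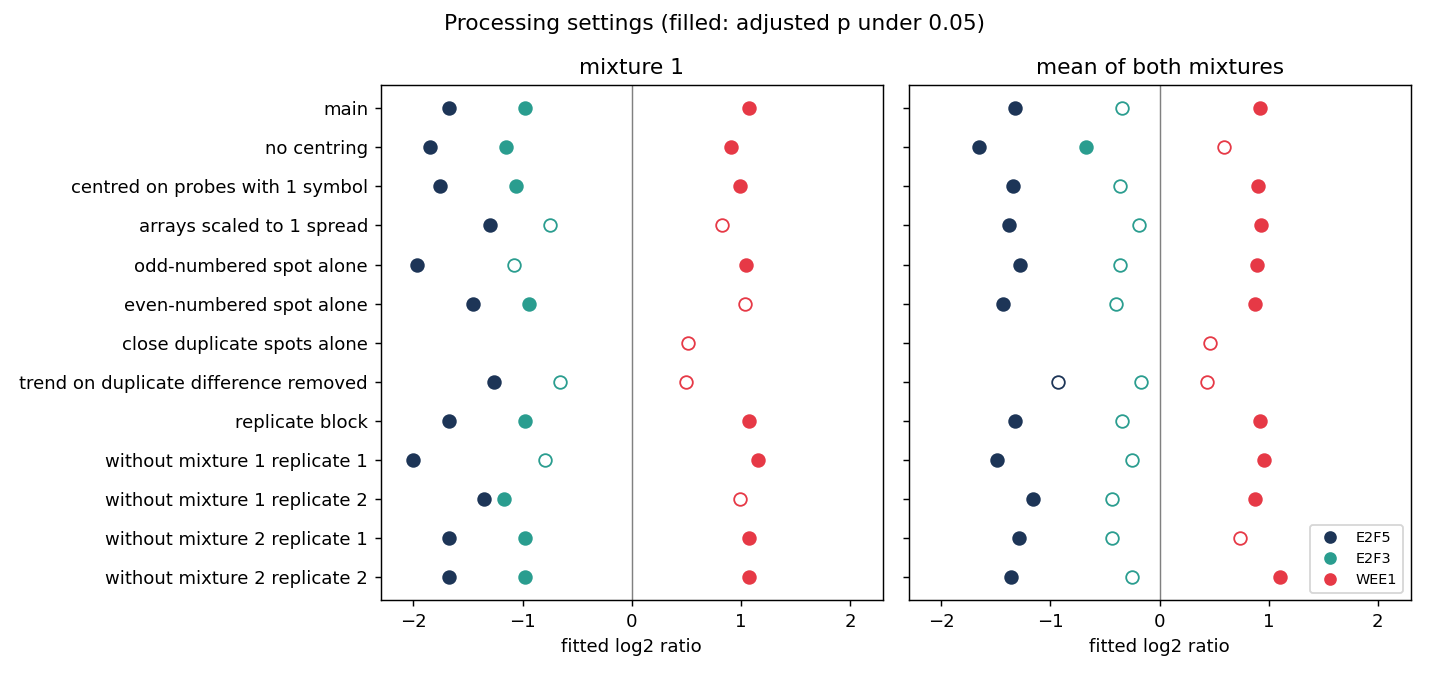
Fitted log2 ratio (horizontal axis) of E2F5, E2F3 and WEE1 in mixture 1 (left) and in the mean of both mixtures (right) under each processing setting (rows), with filled points where the limma adjusted p is under 0.05. In mixture 1 E2F5 is filled in every setting that keeps its probe and stays between -2.01 and -1.27, while E2F3 and WEE1 are open in some.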

How the data were processed

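The authors deposited 1 log2 ratio of the channels per spot, for 2304 spots with none missing. The sources used here do not give the dyes, scanner, background correction or spot filter. The labels of mixture 1 replicate 2 and mixture 2 replicate 1 name normalization factors (3.8 and 1.169) without saying what they were applied to. Centring cancels a factor on a channel's intensities or on the ratios, but not one applied to log ratios. Adjacent spots (2n-1 and 2n) were averaged, and each array was centred on its median (-0.12 and -0.22 for mixture 1, -0.44 and -0.53 for mixture 2). Gene names came from the platform annotation.

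All 1152 probes were fitted with limma 3.58.1 in R 4.3.3 (lmFit, eBayes), 1 mean per mixture over 4 arrays, with 2 residual and 6.69 prior degrees of freedom. Mixture 1, mixture 2, their mean and their difference were tested against 0, two-sided, with Benjamini-Hochberg adjustment over all probes and a threshold of 0.05. RT210B was on every array, so its own spread between cultures is left out. The fit was tested on simulated data with the same spread for a probe on all arrays. That test cannot show how the fit handles arrays of unequal spread.

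All 6 genes are named, with list genes counted and those that passed named, and the 3 nearest probes of each gene. The list genes that did not pass are named too, and which of their values are given was chosen after the values were seen. The genes and lists were chosen with earlier results of these data known. Alternatives covered centring, scaling, single spots, spot agreement, a replicate block and leaving out each array.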

Additional observations from a re-analysis of the deposited data

Results flagged for a closer look

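E2F3 lay on opposite sides of the array's middle in the mixtures, negative on both arrays of mixture 1 (-1.17 and -0.79) and positive on both arrays of mixture 2 (0.48 and 0.10). Of all probes 11.5% had opposite signs in this way. The difference of -1.27 did not pass in limma (adjusted p 0.133). Over 11 alternatives it ran from -1.46 to -0.96, with adjusted p-values of 0.0471 to 0.618. The sign in mixture 2 was lost without centring (-0.19).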

How the results depend on the processing

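Of 288 values of the 6 genes under alternatives, 243 kept their sign and their side of the threshold, 14 no longer passed, 9 newly passed and 22 changed sign. These counts hold repeats. For a single mixture, leaving out either array of the other mixture gives the same fit as its own arrays alone. Neither those settings nor the replicate block can move a mixture's value, so the 243 overstates how far the values were tried. The count of genes passing in mixture 1 (3) was 1 with arrays scaled to 1 spread and 1 with the trend on spot agreement removed. Over probes with close spots alone, which keep 3 of the 6 genes, it was 0, where 272 of 576 probes passed. In mixture 2 (0) it was 1 without centring, 2 with scaling (E2F5 and WEE1) and 1 on its own arrays (E2F5). In the mean (2) it was 0 over close spots alone, where 257 of 576 probes passed, and 0 with the trend removed, where no probe did. With 1 array left out, the counts ranged from 2 to 3 in mixture 1, 0 to 1 in mixture 2, 1 to 2 in the mean and 0 to 1 in the difference. There E2F3 passed without mixture 1 replicate 2 (-1.46), in a fit that assumes the lone array varies like the others.

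With the trend removed, signs changed for E2F4 (0.16), CDK6 (-0.17) and CDC6 (-0.70) in mixture 1, CDC6 in mixture 2 (-0.094), and E2F4 (0.016) and CDC6 (-0.40) in the mean. Over close spots alone they changed for CDK6 (-0.33) and CDC6 (-0.23) in mixture 1 and CDK6 (-0.024) and CDC6 (-0.051) in the mean. That setting centres again on the probes kept, which lowers each value. E2F4 in mixture 2 changed on the even-numbered spot (0.014) and E2F3 in mixture 2 without centring (-0.19). In the difference, E2F4 changed with centring on singly named probes (-0.094) and on the even-numbered spot (-0.27). E2F5 (0.16) and WEE1 (-0.20) changed there with scaling, and CDC6 without centring (0.15). With 1 array left out, the difference crossed 0 for E2F4 (-0.23 to 0.29), CDK6 (-0.86 to 0.060), CDC6 (-0.53 to 0.20) and WEE1 (-0.059 to 0.68). The causes were not tested.

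Of all 1152 probes, 497 passed in mixture 1, against 231 with scaling and 199 with the trend removed. Over close spots 272 of the 576 probes kept passed, a larger share than of all probes. In mixture 2, against 0, 206 passed without centring, 262 with scaling, 113 on its own arrays and 0 to 113 with an array left out. In the mean, against 446 of 1152, 0 passed with the trend removed. Over close spots 257 of the 576 probes kept passed, again a larger share. In the difference, against 0, 47 passed without centring and 0 to 213 with an array left out. With the replicate number as a block, the counts of the 6 genes were 3, 0, 2 and 0 in the order mixture 1, mixture 2, mean and difference, as without the block, and 36 probes passed in the difference. Deviations of arrays with the same number correlated at r = -0.098 over probes, so the numbers were not taken to pair the arrays. With no intensities used here, signal over background is unknown, and the 4 arrays limit the precision.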
